A study of Homo sapiens with 18 samples.

Results

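Described here are 10 genes of IL6 receptor, JAK-STAT and feedback signalling, chosen by symbol: the receptor genes IL6R and IL6ST, the kinase genes JAK1 and JAK2, the transcription factor gene STAT3, the feedback genes SOCS3, SOCS1 and CISH, the cytokine gene IL10 and the kinase gene PIM2. All 10 were found in the 3 expression tables and in the immunoprecipitation table, among 16532 gene names in the H929 table, 57351 in each MM1S table and 20233 in the immunoprecipitation table. H929 and MM1S are established human multiple myeloma lines, that is, malignant plasma cells grown in culture. The groups were 3 H929 libraries with an shRNA to RBM39 and 3 with a scrambled shRNA, 2 MM1S libraries with an shRNA to RBM39 and 2 with a scrambled shRNA, and 3 MM1S libraries treated with the RBM39 degrader indisulam and 3 with the vehicle DMSO. A further 2 MM1S samples are RNA recovered with an antibody to RBM39 (RIP, RNA immunoprecipitation) and with control IgG, 1 library each. RBM39 is a splicing factor. No hairpin sequence, dose, treatment time or clone is given, and the labels do not say whether replicates were grown separately, so each p-value reflects the spread among these libraries, which may be technical.

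In plasma cells, IL6 binds its receptor IL6R, which pairs with the shared signalling chain gp130, the product of IL6ST. JAK kinases bound to gp130 then phosphorylate STAT3, which enters the nucleus and turns on genes of survival and growth. Among its targets are SOCS3 and SOCS1, whose products bind JAKs or the receptor and shut the signal down. IL6 from the bone marrow stroma is a known growth and survival factor of myeloma cells, and IL10 is a cytokine that signals through STAT3 by a receptor of its own.

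The label check and the library quality come first. In H929, RBM39 was at 38.3, 38.6 and 35.6 FPKM (fragments scaled to transcript length and library size) in the libraries labelled shRBM39, against 4.56, 4.43 and 4.51 FPKM in those labelled scramble, opposite to the direction the labels name. The H929 groups are therefore named as labelled and not read as knockdown and control. In MM1S, RBM39 was at 64.8 and 52.2 TPM (transcript level per length, scaled to a fixed total) with shRBM39, against 176 and 205 TPM with scramble. Indisulam acts on the protein, and RBM39 transcript was at 226, 217 and 149 TPM, against 189, 178 and 196 TPM in DMSO. Indisulam library 3 stood apart: over the genes tested its log2 values correlated with indisulam libraries 1 and 2 at r = 0.958 and 0.964, against 0.987 between those libraries, and with the DMSO libraries at 0.949 to 0.950. Tested differences of that comparison are therefore given with and without it. All 8 plasma cell markers were detected at 1 or more in each table, but their levels moved with the groups. They summed to 3946 to 4184 FPKM in H929 libraries labelled shRBM39 and 2598 to 2773 FPKM in those labelled scramble, with SDC1 at 497 to 507 FPKM and 119.7 to 130.5 FPKM. TNFRSF17, IRF4, XBP1 and MZB1 were also higher in the libraries labelled shRBM39, while PRDM1, CD38 and SLAMF7 were lower, all without overlap. In MM1S the 8 markers summed to 2061 to 3034 TPM with shRBM39 and 1694 to 1891 TPM with scramble. Much of that difference lay in MZB1, at 1079 to 1669 TPM with shRBM39 and 635 to 805 TPM with scramble. XBP1 and SLAMF7 were also higher with shRBM39, IRF4 and PRDM1 were lower, all without overlap, and SDC1, TNFRSF17 and CD38 overlapped. The 8 markers summed to 3019.6 to 3299 TPM with indisulam and 3585 to 3754 TPM in DMSO. CD38 was at 0.92 to 1.81 TPM with indisulam and 3.85 to 4.8 TPM in DMSO, and CD3E at 0.89 to 1.36 TPM and 2.9 to 4.05 TPM. Of the plasma cell markers, TNFRSF17 and MZB1 were also lower with indisulam, XBP1 was higher, and SDC1, IRF4, PRDM1 and SLAMF7 overlapped. The part of these levels in the results was not tested. T cell markers summed to 15.7 to 18.5 FPKM in H929 shRBM39 libraries and 39.3 to 47.1 FPKM in scramble libraries, and came almost wholly from CD3E, since CD3D was at most 0.0723 FPKM. B cell, macrophage and stromal markers summed to at most 0.6, 0.69 and 3.63 in their table's unit in any library.

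The upstream sequences of CISH and IL10 are shown because CISH was the member whose upstream window held the STAT motif and IL10, with SOCS3, had the furthest change in the MM1S knockdown. The windows are the 250 bases before each annotated start in RefSeq (GRCh38.p14), for which all 10 members matched, with 18 windows in all. Searched on both strands were the motif TTCNNNGAA, a palindromic site that STAT proteins bind, and the TATA box TATAAA, which do not overlap here. Matches are in capitals, and the sequences read 5′ to 3′ along the gene.
CISH (chr3:50611775-50612024, minus strand): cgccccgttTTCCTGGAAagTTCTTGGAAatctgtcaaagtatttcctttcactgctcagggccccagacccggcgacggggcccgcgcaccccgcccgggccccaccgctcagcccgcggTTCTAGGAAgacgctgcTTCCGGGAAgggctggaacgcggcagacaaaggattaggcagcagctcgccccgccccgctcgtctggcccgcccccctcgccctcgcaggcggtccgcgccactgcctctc
IL10 (chr1:206772495-206772744, minus strand): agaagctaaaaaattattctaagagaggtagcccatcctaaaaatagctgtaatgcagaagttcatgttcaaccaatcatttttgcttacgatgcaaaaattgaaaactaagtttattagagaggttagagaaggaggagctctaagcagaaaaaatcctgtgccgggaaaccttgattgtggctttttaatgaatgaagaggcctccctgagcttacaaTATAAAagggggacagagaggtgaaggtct
CISH held 4 matches to TTCNNNGAA, which began 241, 230, 129 and 112 bases upstream of the start. The motif was found in 6.56% of 34943 windows of this length in the reference, and 4 or more matches in 0.0143%. IL10 held a TATAAA that began 30 bases upstream, a motif found in 10.8% of windows. The windows of the other 9 members held no TTCNNNGAA.

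PIM2, a serine/threonine kinase of the survival programme of myeloma, was the most abundant member in every group, at 478 FPKM or TPM or more in each library. CISH had the lowest mean in both H929 groups, but in the libraries labelled shRBM39 it was not separated from SOCS1. In the libraries of MM1S treated with indisulam or DMSO, IL10 and SOCS3 were lowest and were not separated from each other, nor, with indisulam, SOCS3 from CISH.

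**Figure D1:**
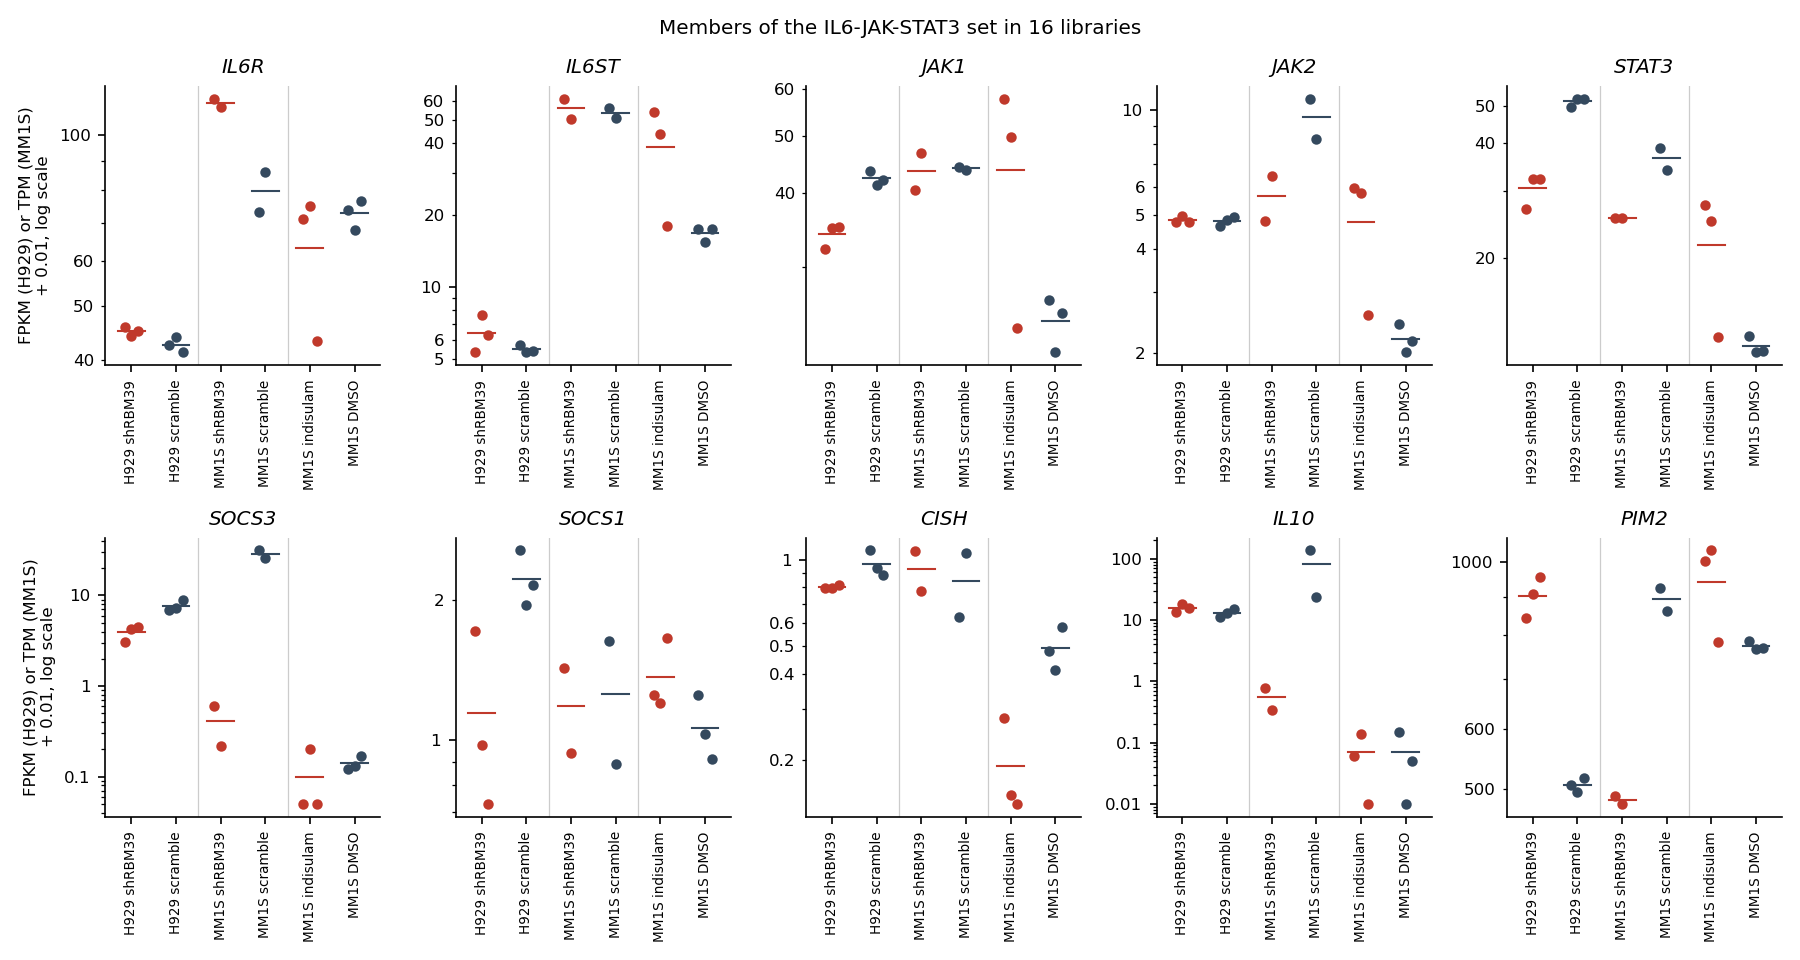
Values of the 10 members in the 16 expression libraries on log axes, in FPKM for H929 and TPM for MM1S with 0.01 added, with points for libraries and bars for group means. SOCS3 and IL10 were at 23.9 TPM or more in the MM1S scramble libraries and under 1 TPM in the other MM1S groups, while PIM2 stayed within 478 to 1037 in all 16 libraries.

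The comparison in MM1S asked what knockdown of RBM39 did to these genes. The feedback gene SOCS3, the cytokine gene IL10 and the kinase gene PIM2 were called lower with shRBM39 than with scramble. These were 3 of the 10 members, and all 10 passed the filter on low values. Of all genes, 10.4% were called in either direction and 6.38% lower (limma, Benjamini-Hochberg adjusted p below 0.05). No member was called higher, 6 members had an unadjusted p below 0.05, and 4.03% of all genes were called higher. SOCS3 and IL10 reached 1 TPM only in the scramble libraries, so they entered the test through the group where they were high. A call for either gene could then only be lower, and the count of members is given as a description. The median log2 change of the members was -0.27, beside 0.00 over all genes tested.

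SOCS3 was at 0.59 and 0.21 TPM with shRBM39, against 31.6 and 25.8 TPM with scramble. Both knockdown libraries lay under 1 TPM and both scramble libraries above 25, so the groups were far apart. On the scale of log2(TPM + 1), on which all changes here are given, SOCS3 moved by -4.41, with an SE of 0.231 and a limma adjusted p of 0.0113. IL10 was at 0.77 and 0.33 TPM with shRBM39, against 138 and 23.9 TPM with scramble. The groups did not overlap, but the scramble libraries differed widely from each other, with a mean of 80.8 ± 80.3 TPM (SD, n = 2). Its log2 change, -5.26 with an SE of 0.785, had a limma adjusted p of 0.0236, and the 95% interval ran from -7.24 to -3.28. PIM2 was at 489.7 and 478 TPM with shRBM39, against 925 and 861 TPM with scramble, which is -0.88 in log2 terms (SE 0.101; limma adjusted p = 0.0158). Its libraries were close within each group and did not overlap between them. In bulk RNA, fewer cells that express a gene and less of its RNA per cell cannot be told apart. In the same libraries macrophage markers, of which none of 4 reached 1 TPM, summed to 0.27 to 0.3 TPM with shRBM39 and 0.57 to 0.69 TPM with scramble, and CD3E was at 0.77 to 1.06 TPM and 4.37 to 5.64 TPM, with CD3D listed at 0 in all 4. The part of these values in the changes was not tested. In the separately normalized MM1S DMSO libraries, IL10 was at 0 to 0.14 TPM and SOCS3 at 0.11 to 0.16 TPM. Among the MM1S expression groups, both genes were thus high in the scramble libraries alone. Whether the scramble level is the usual one for this line was not tested.

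Upstream of these genes no member passed the test without further scaling. IL6R was at 116 and 112 TPM with shRBM39, against 73.2 and 86.2 TPM with scramble, with no overlap and an adjusted p of 0.0705 in limma for a log2 difference of 0.51. After quantile normalization IL6R was called higher, by 0.60 (limma adjusted p = 0.0437), where 1619 of 14122 genes were called. IL6R-AS1, an antisense gene listed at 0.26 to 0.96 TPM in MM1S, shares its locus, and whether counting used strand is not given in the sources used here. STAT3 was at 25.4 and 25.4 TPM with shRBM39, against 38.9 and 34.1 TPM with scramble, or -0.50 in log2 terms, with an adjusted p of 0.0734 in limma. JAK2 was at 4.81 and 6.48 TPM, against 10.8 and 8.27 TPM (log2 difference -0.67, limma adjusted p = 0.115). STAT3 and JAK2 were thus lower in both knockdown libraries than in either scramble library, without passing the threshold. For the gp130 gene IL6ST the difference was 0.06, with a 95% interval from -0.32 to 0.44, at 61.1 and 50.3 TPM against 55.7 and 50.6 TPM. For JAK1 it was -0.02, from -0.36 to 0.32, at 40.4 and 46.8 TPM against 44.2 and 43.8 TPM. SOCS1, at 1.42 and 0.93 TPM against 1.62 and 0.88 TPM, and CISH, at 1.06 and 0.77 TPM against 0.62 and 1.05 TPM, overlapped between groups at levels near 1 TPM. Of the 10 members, 5 were lower and 1 higher without overlap, beside 31.9% and 30.5% of all genes.

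These calls rested on 4 libraries. Without scramble library 1, scramble library 2 or shRBM39 library 2, limma called 0 members and 0 of all genes at the adjusted threshold, with 3, 6 and 6 members at an unadjusted p below 0.05. Without shRBM39 library 1 it called 2. The log2 change of IL10 was -4.02 without scramble library 1 and -6.50 without scramble library 2 (limma adjusted p = 0.219 and 0.213), and SOCS3 kept a change of -4.61 to -4.22 whichever library was left out.

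**Figure D2:**
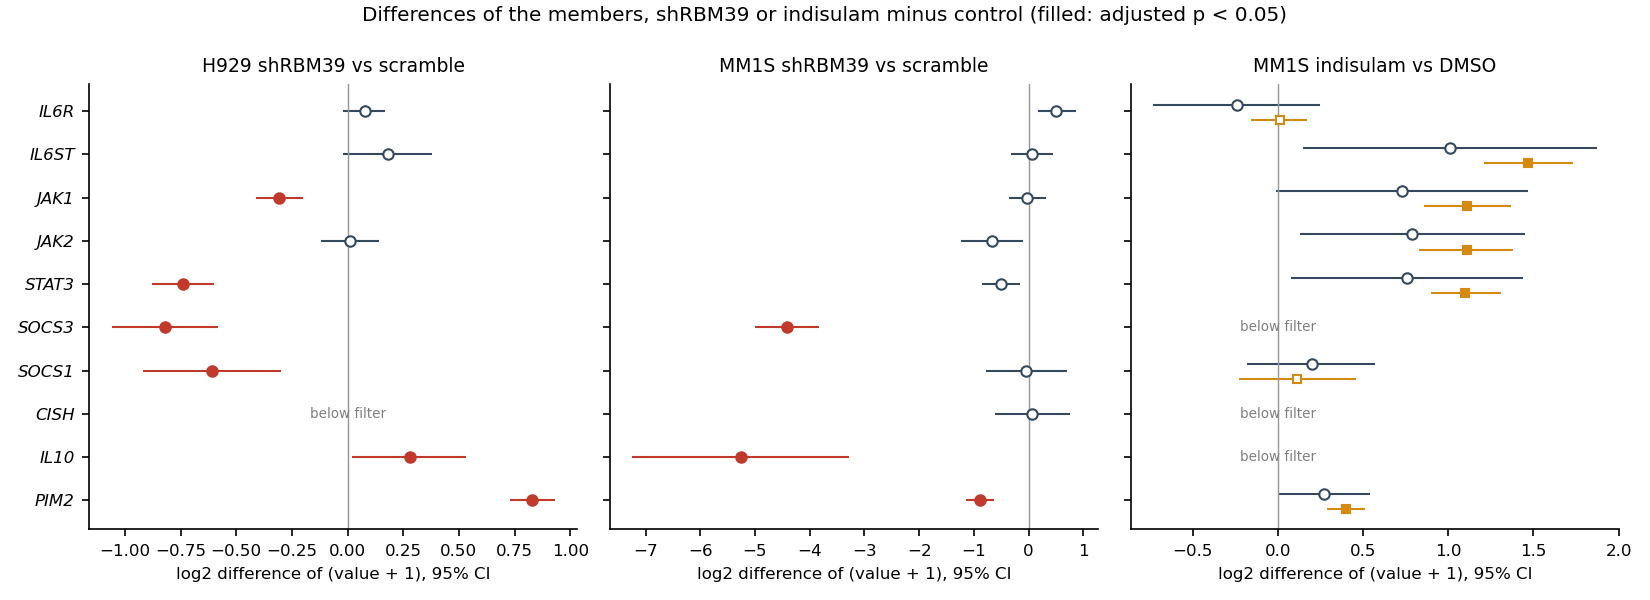
Log2 differences of (value + 1) for the members with 95% intervals from limma, shRBM39 minus scramble or indisulam minus DMSO, filled where the adjusted p was below 0.05. Orange squares leave out indisulam library 3. SOCS3 and IL10 in the MM1S knockdown, at -4.41 and -5.26, lay furthest from 0.

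In the H929 libraries labelled shRBM39, PIM2 was higher and SOCS3, STAT3, SOCS1 and JAK1 were lower than in those labelled scramble, with IL10 called higher by a narrow margin. In all, 6 of 9 members that passed the filter were called, 2 higher and 4 lower, where 72.2% of all genes were called, 24.1% higher and 48.1% lower, so the members' share is near that of all genes. Without overlap between groups, 2 of the 9 were higher and 4 lower, beside 25.1% and 49.6% of all genes. Over all genes tested the median was -0.13 in log2 terms, and over the members 0.01. For the members, differences relative to that median are given as well.

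STAT3 was at 26.9, 32.2 and 32.3 FPKM in the libraries labelled shRBM39, against 49.7, 52.3 and 52.3 FPKM in those labelled scramble. The groups lay well apart, with a log2 difference of -0.74, or -0.61 relative to the median gene (SE 0.0647, limma adjusted p = 3.39e-07). JAK1 was at 32.2, 34.9 and 35 FPKM, against 43.6, 41.3 and 42 FPKM, a log2 difference of -0.31, or -0.17 relative to the median gene (SE 0.0484, limma adjusted p = 7.70e-05). JAK2 was nearly level, at 4.77, 4.97 and 4.77 FPKM against 4.64, 4.83 and 4.93 FPKM, with overlapping groups. Its log2 difference was 0.01, with an interval from -0.12 to 0.14, or 0.14 relative to the median gene.

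The receptor genes did not pass the test in H929 with all libraries and no further scaling. IL6R was at 45.8, 44.2 and 45.1 FPKM in the libraries labelled shRBM39, against 42.5, 44 and 41.3 FPKM, without overlap but with a log2 difference of 0.08, or 0.21 relative to the median gene (limma adjusted p = 0.125). IL6ST was at 5.31, 7.58 and 6.29 FPKM, against 5.73, 5.31 and 5.38 FPKM, with a log2 difference of 0.18, or 0.31 relative to the median gene (limma adjusted p = 0.099). The IL6ST value rested on single libraries: it was 0.29 and called without shRBM39 library 1 (limma adjusted p = 0.0068) and 0.07 without shRBM39 library 2 (limma adjusted p = 0.465).

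Among the feedback genes, SOCS3 was at 3.07, 4.28 and 4.51 FPKM in the libraries labelled shRBM39, against 6.9, 7.33 and 8.82 FPKM in those labelled scramble. All 3 libraries of the first group lay below all 3 of the other, with a log2 difference of -0.82, or -0.68 relative to the median gene (SE 0.11, limma adjusted p = 2.14e-05). SOCS1, the JAK inhibitor closest to SOCS3 in function, was at 1.71, 0.965 and 0.72 FPKM, against 2.55, 1.94 and 2.14 FPKM, a log2 difference of -0.61, or -0.48 relative to the median gene (SE 0.141, limma adjusted p = 0.00216). CISH, known as a feedback inhibitor of STAT5 signalling, stayed below the filter of 1 FPKM in enough libraries to be left out of the fit. It was at 0.788, 0.787 and 0.806 FPKM, against 1.07, 0.929 and 0.874 FPKM, without overlap.

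IL10 was at 13.5, 18.3 and 16 FPKM in the H929 libraries labelled shRBM39, against 11, 12.9 and 15 FPKM in those labelled scramble. The groups overlapped, and the log2 difference was 0.28, or 0.41 relative to the median gene (SE 0.115, limma adjusted p = 0.0491). The call was lost without shRBM39 library 2 or 3 or scramble library 1 or 2, where the limma adjusted p was 0.114 to 0.168. The difference was then 0.18 without shRBM39 library 2 or scramble library 1, and 0.27 and 0.28 without shRBM39 library 3 and scramble library 2. The call was also lost with a pseudocount of 0.1, with no filter and in limma without trend and robust, at adjusted p of 0.0544, 0.131 and 0.058. PIM2 was at 844, 908 and 955 FPKM, against 506, 495 and 517 FPKM. Every library labelled shRBM39 lay above every scramble library, with a log2 difference of 0.83, or 0.97 relative to the median gene (SE 0.0471, limma adjusted p = 5.77e-09). Under median scaling, 5 members were higher and 4 lower, with IL6R, IL6ST and JAK2 added to the higher side, where 69.9% of all genes were called, 37.1% higher and 32.9% lower. RBM39 in these libraries went against the labels, so the direction of PIM2, SOCS3 and STAT3 relative to RBM39 loss cannot be given.

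The indisulam comparison asked what treatment with the RBM39 degrader did in MM1S. RBM39 protein is not among these data, so its loss in these libraries is not shown. With all 6 libraries, limma called 0 of the 7 members that passed the filter, 3 of them with an unadjusted p below 0.05, where 29.9% of all genes were called. This count rested on the scaling and on indisulam library 3. After median scaling of all 6 libraries limma called 4 members, all higher: IL6ST (adjusted p = 0.0126), JAK1 (0.016), JAK2 (0.00973) and STAT3 (0.00739), with log2 differences of 1.02, 0.74, 0.79 and 0.77, where 40.5% of all genes were called. After quantile normalization it called these and PIM2, where 5806 of 13421 genes were called. Without library 3 limma called 5 of 7, all higher, namely IL6ST, JAK1, JAK2, STAT3 and PIM2, and 65.8% of all genes were then called, 37.9% higher and 27.9% lower. Of the 7 members, 2 were higher and 0 lower without overlap when all 6 libraries were kept, beside 14.9% and 32.4% of all genes.

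IL6ST was at 53.5, 43.3 and 18 TPM with indisulam, against 17.5, 15.4 and 17.5 TPM in DMSO. Libraries 1 and 2 lay well above DMSO and library 3 just above its highest value, and the log2 difference of 1.01 had an adjusted p of 0.078 in limma, against 1.47 and 5.36e-05 without library 3. JAK1 was at 57.7, 49.7 and 23.6 TPM with indisulam, against 26.4, 21.5 and 25.1 TPM in DMSO. Library 3 fell among the DMSO values, and the log2 difference was 0.73 (limma adjusted p = 0.121), or 1.11 without it (SE 0.108, limma adjusted p = 1.47e-04). JAK2 was at 5.96, 5.78 and 2.56 TPM, against 2.42, 2 and 2.16 TPM, a log2 difference of 0.79 (limma adjusted p = 0.0737), or 1.11 without library 3 (limma adjusted p = 1.96e-04).

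STAT3 showed the same split between libraries, at 27.6, 25 and 12.4 TPM with indisulam, against 12.5, 11.3 and 11.4 TPM in DMSO. Its log2 difference was 0.76 (limma adjusted p = 0.0879), or 1.10 without library 3 (SE 0.0865, limma adjusted p = 6.40e-05). PIM2 was at 1003, 1037 and 783 TPM, against 785, 766 and 769 TPM, with a log2 difference of 0.27 (limma adjusted p = 0.119), or 0.40 without library 3 (limma adjusted p = 3.39e-04). IL6R departed from this split. It was at 71, 75.1 and 43.2 TPM, against 73.6, 68 and 76.6 TPM, so library 3 was the lowest of all 6, and the log2 difference was -0.24 (limma adjusted p = 0.411), or 0.01 without library 3, with an interval from -0.16 to 0.17.

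**Figure D3:**
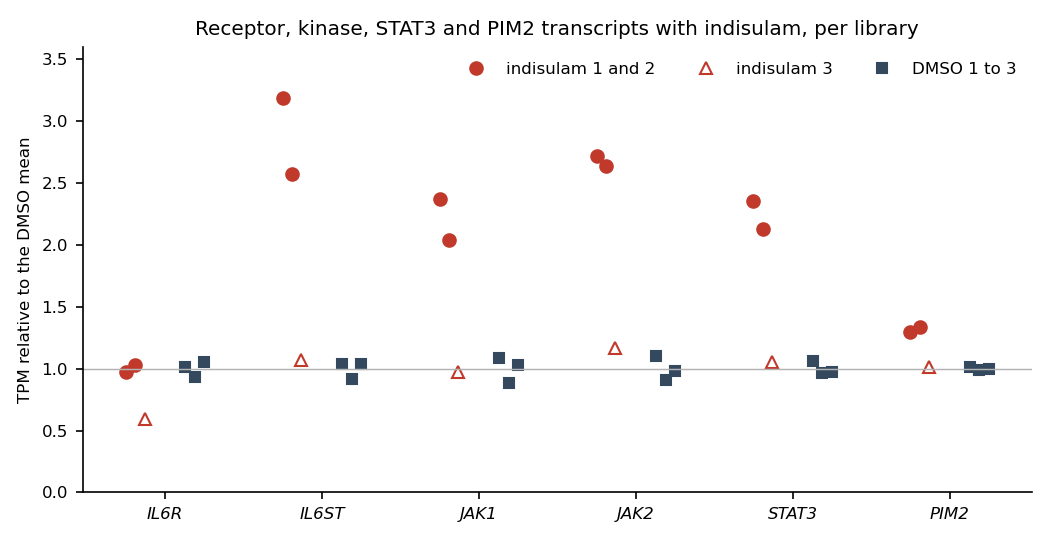
TPM of 6 members in each indisulam and DMSO library, divided by the mean of the 3 DMSO libraries, with library 3 of indisulam as an open triangle. In IL6ST, JAK1, JAK2 and STAT3 libraries 1 and 2 lay well above DMSO and library 3 close to it, while IL6R was low in library 3 alone.

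IL10, SOCS3 and CISH were below 1 TPM in all 6 libraries of this comparison and were not tested. SOCS3 was at 0.04, 0.19 and 0.04 TPM with indisulam, against 0.11, 0.12 and 0.16 TPM in DMSO. IL10 was at 0.05, 0.13 and 0 TPM, against 0.14, 0 and 0.04 TPM. A fall of the kind seen in the knockdown was therefore not detectable for either gene from these DMSO levels. CISH was at 0.27, 0.14 and 0.13 TPM, against 0.47, 0.4 and 0.57 TPM, without overlap. SOCS1 was at 1.24, 1.19 and 1.65 TPM, against 1.24, 1.02 and 0.9 TPM, with overlapping groups (log2 difference 0.20, limma adjusted p = 0.379, or 0.11 and 0.519 without library 3).

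The PIM2 values in the MM1S comparisons stood on either side of 0, with a log2 change of -0.88 for shRBM39 and 0.27 for indisulam. STAT3 likewise had -0.50 for shRBM39 and 0.76 for indisulam. Of these values only that of PIM2 for shRBM39 was called with all libraries and no further scaling. The tables were normalized separately, so the difference between the comparisons was not tested. Two-sided exact permutation tests on single members could not reach 0.05, since the smallest p is 0.1 for 3 against 3 libraries and 0.333 for 2 against 2.

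The surrounding pathway was followed in 74 other genes. The IL6 family ligands and IL10 family cytokines were scarcely expressed. Of 11 such genes, 0 passed the filter in H929, 4 in the MM1S knockdown and 1 with indisulam, and limma called 0 of them, with 0 at an unadjusted p below 0.05. IL6 itself was at 0.0893, 0.168 and 0.207 FPKM in H929 libraries labelled shRBM39, against 0.427, 0.0777 and 0.175 FPKM in those labelled scramble. In MM1S it was at 0.28 and 2.18 TPM with shRBM39, against 2.28 and 1.33 TPM with scramble, and at 0.22, 0.15 and 0 TPM with indisulam, against 0.17, 0.22 and 0.55 TPM in DMSO. IL6 overlapped between groups in each comparison.

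In H929, limma called 8 of the 53 pathway genes tested higher and 34 lower, beside 24.1% and 48.1% of all genes. After median scaling the split was 12 and 22, beside 37.1% and 32.9% of all genes. Their median log2 difference was -0.24, against -0.13 for all genes. These shares of all genes, before and after median scaling, also stand against the counts of each H929 list that follows. Of 12 receptor genes that use JAKs, 2 were higher and 8 lower, or 4 and 5 after median scaling. The chains of the IL10 receptor went apart. The ligand-binding chain IL10RA was at 14.8, 14.8 and 16.4 FPKM in the libraries labelled shRBM39, against 28.5, 28.4 and 26 FPKM (limma adjusted p = 5.35e-08). The shared chain IL10RB was at 23.9, 26 and 24.2 FPKM, against 12.1, 10.6 and 10.6 FPKM (limma adjusted p = 6.80e-09). These differences were -0.81 and 1.08 on the log2 scale, or -0.68 and 1.22 relative to the median gene, and were called under each scaling. The IL4 receptor gene IL4R, with a log2 difference of -1.22, and IL15RA, with -0.58, were lower, and the interferon receptor gene IFNAR2, with 0.41, was higher.

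The other STAT and kinase genes in H929 were all called, 3 higher and 4 lower of 7, or 3 and 3 after median scaling, where 72.2% and 69.9% of all genes were called. STAT2, a STAT of type I interferon signalling, was higher by 0.31 on the log2 scale in the libraries labelled shRBM39 and STAT5B by 0.15, and STAT5A and STAT5B are near-identical paralogs between which reads may be shared. STAT4 was at 9.93, 7.31 and 9.14 FPKM in the libraries labelled shRBM39, against 33.8, 34.9 and 40.5 FPKM in those labelled scramble (log2 difference -1.94, or -1.80 relative to the median gene, limma adjusted p = 3.49e-09). JAK3, which serves receptors with the common gamma chain, was lower, with a log2 difference of -0.56, and TYK2, the other JAK family kinase, with -0.42.

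Of 18 other negative regulators in H929, 2 were higher and 12 lower, or 3 and 8 after median scaling. PTPN6, the phosphatase SHP-1 of blood cells, was at 152, 144 and 154 FPKM in the libraries labelled shRBM39, against 72.4, 71.7 and 71.1 FPKM (log2 difference 1.05, or 1.19 relative to the median gene, limma adjusted p = 2.02e-10). PIAS3, named as an inhibitor of activated STAT3, was higher, with a log2 difference of 0.62. SOCS2, with -1.03, the cullin gene CUL5 of the SOCS box ligase, with -0.53, and the adaptor gene SH2B3, with -0.58, were lower. Of 16 known STAT3 targets, 1 was higher and 10 lower, beside 24.1% and 48.1% of all genes, or 2 and 6 after median scaling, beside 37.1% and 32.9%. ICAM1, an adhesion molecule, was at 40.4, 47.8 and 46.9 FPKM, against 87.4, 95.5 and 96.1 FPKM (log2 difference -1.03, or -0.90 relative to the median gene). CEBPB, with -0.85, and the survival gene BCL2L1, with -0.51, were also lower, and TIMP1 was higher by 0.12, a call lost after quantile normalization. The PIM2 paralogs PIM1 and PIM3 had log2 differences of 0.03 and -0.03 and were not called.

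In the MM1S knockdown, 3 of 60 pathway genes tested rose and 2 fell, beside 4.03% and 6.38% of all genes, and 18 had an unadjusted p below 0.05. The common gamma chain gene IL2RG was at 555 and 541 TPM with shRBM39, against 266 and 214 TPM with scramble (log2 change 1.20, limma adjusted p = 0.0161). IL11RA, with 0.96, and IFNAR1, with 0.85, also rose. STAT4 was at 4.94 and 5.37 TPM, against 18 and 15.2 TPM (log2 change -1.51, limma adjusted p = 0.0158). JUNB, an early target of STAT3, was at 25 and 14.1 TPM, against 70.9 and 57 TPM (log2 change -1.71, limma adjusted p = 0.0296). PIM1, at 69.1 and 118 TPM against 91.2 and 82.4 TPM, overlapped between groups, and PIM3, at 15.6 and 10.7 TPM against 22.1 and 25.1 TPM, did not overlap but was not called (limma adjusted p = 0.0691). TYK2 and JAK3 were not called, with log2 differences of 0.43 and -0.45. Without scramble library 1, scramble library 2 or shRBM39 library 2, 0 of these genes were called by limma, with 12, 9 and 20 at an unadjusted p below 0.05.

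With indisulam, 3 of 54 pathway genes tested were higher and 6 lower, beside 8.47% and 21.5% of all genes, with 15 at an unadjusted p below 0.05. Without library 3, 26 of 55 were higher and 12 lower, beside 37.9% and 27.9% of all genes, and after median scaling of all libraries 14 of 54 were higher and 5 lower, beside 18.7% and 21.8% of all genes. IL10RA was at 52.8, 54.8 and 33.4 TPM with indisulam, against 19.1, 18.1 and 19.7 TPM in DMSO (log2 difference 1.23, limma adjusted p = 0.00415, or 1.46 without library 3). All 3 treated libraries were above DMSO, library 3 by the least. IFNAR2 was lower, at 37, 27.3 and 21.8 TPM against 59.8, 64.1 and 61.8 TPM (log2 difference -1.11, or -0.94 without library 3), as was IL2RG, at 168, 195 and 182 TPM against 272, 268 and 251 TPM (log2 difference -0.54 with and without library 3, a call lost after median scaling and after quantile normalization).

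Among negative regulators with indisulam, SOCS2 was at 3.79, 3.65 and 4.56 TPM, against 9.33, 9.04 and 9.04 TPM (log2 difference -1.02, limma adjusted p = 0.00349, or -1.10 without library 3). The elongin gene ELOC of the SOCS box ligase, with -0.78, or -0.81 without library 3, and PTPN6, with -0.54, or -0.57 without it, were lower, and the PTPN6 call was lost after either scaling. PIAS1, with 0.72, or 0.94 without library 3, was higher. Of the STAT3 targets, MYC was lower, at 91.9, 116 and 91 TPM against 168, 154 and 168 TPM (log2 difference -0.72, limma adjusted p = 0.00413, or -0.66 without library 3), and ICAM1 was higher, with 0.54, or 0.63 without library 3. Of 8 other kinase and STAT genes limma called 0, with 1 at an unadjusted p below 0.05. Without library 3 it called 7 higher and 0 lower, where 37.9% of all genes were called higher. JAK3, TYK2, PIM1 and PIM3 had log2 differences of 0.55, 0.26, 0.05 and -0.31 and were not called with all libraries. Without library 3 these were 0.82, 0.38, 0.16 and -0.34, and limma called JAK3 and TYK2 higher and PIM3 lower.

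**Figure D4:**
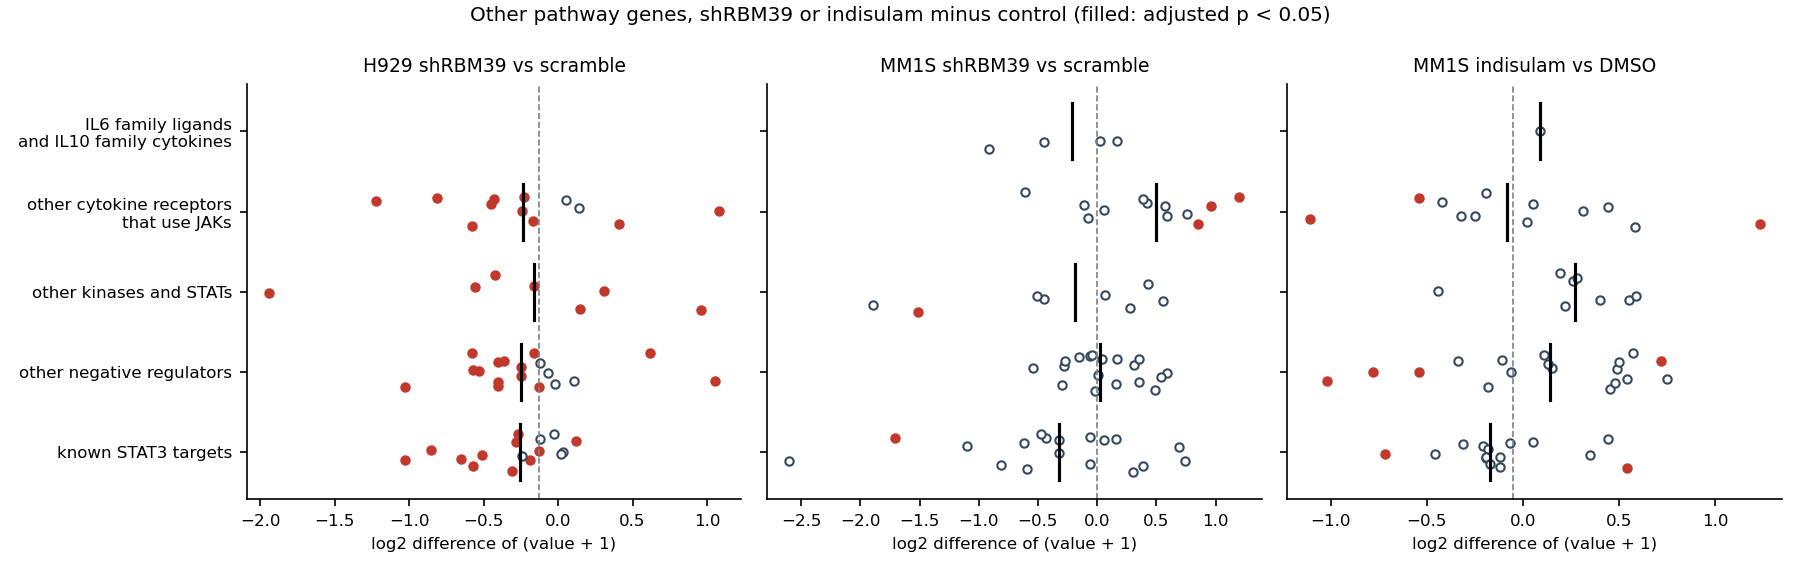
Log2 differences of (value + 1) of the other pathway genes that passed the filter, by list, filled where the limma adjusted p was below 0.05, with the list median as a black bar and the median of all genes tested as a dashed line. In H929 most STAT3 targets and negative regulators lay left of 0, with list medians of -0.26 and -0.25 against -0.13 for all genes.

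Of 7 genes known to act on the IL10 promoter, MAF, the transcription factor that drives IL10 in several lymphocyte types, was higher with indisulam, at 275, 316 and 137 TPM against 105, 97.2 and 102 TPM in DMSO (log2 difference 1.16, limma adjusted p = 0.0222, or 1.53 without library 3). With indisulam limma called 1 of the 7 higher and 0 lower, beside 8.47% and 21.5% of all genes. Without library 3 it called 5 and 0, beside 37.9% and 27.9%. With all libraries it called 2 and 0 after median scaling, where 5440 of 13421 genes were called. After quantile normalization it called 3 and 0, where 5806 genes were called. In the MM1S knockdown MAF was at 684 and 398 TPM, against 247 and 248 TPM with scramble, without overlap (log2 difference 1.07, limma adjusted p = 0.0596). IRF4 was lower there without overlap, at 86.7 to 128 TPM against 150.3 to 181 TPM. PRDM1 was too, at 59.8 to 72.2 TPM against 76 to 77.1 TPM. Limma called 0 of the 7 in the knockdown, beside 10.4% of all genes. After median scaling and after quantile normalization it called 1 higher and 0 lower, where 1673 and 1619 of 14122 genes were called. IL10 in those knockdown libraries was under 1 TPM. In H929, MAF, with a log2 difference of 0.18, and IRF4, with 0.66, were higher, and PRDM1, with -0.38, and BATF, with -0.65, lower. These were 2 higher and 2 lower of the 7, beside 24.1% and 48.1% of all genes. After median scaling 5 were higher and 2 lower, beside 37.1% and 32.9%.

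The genes most like IL10 and SOCS3 in MM1S were sought over the 10 expression libraries, each table centred on its own mean, among 11091 genes. SERPINA1, the gene of alpha-1 antitrypsin, followed IL10 at r = 0.981, at 0.86 and 0.43 TPM with shRBM39, against 15.8 and 3.55 TPM with scramble, with its higher value in the same scramble library. TNFAIP8L1, at r = 0.984, was at 3.25 and 3.25 TPM with shRBM39, against 10.7 and 7.77 TPM with scramble. AP005899.1, at r = 0.998, was at 10.4 and 9.99 TPM, against 18 and 15 TPM. The correlation does not measure the size of a difference, which was much smaller for AP005899.1 than for IL10. The chemokine gene CCL4 followed SOCS3 at r = 0.993, at 16.1 and 8.12 TPM with shRBM39, against 502 and 374 TPM with scramble. TMPRSS12, at r = 0.996, was at 41.8 and 35 TPM, against 93.3 and 87.5 TPM. LINC02008, at r = 0.995, was at 0 and 0 TPM, against 7.76 and 7.82 TPM. These correlations share their libraries and rest mainly on the knockdown contrast, and are given as descriptions.

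The RIP libraries asked which RNAs were recovered with RBM39, and with 1 library each there is no test. The transcript of RBM39 itself was at 62.1 FPKM with the antibody and 127 FPKM with IgG, a log2 ratio of (FPKM + 1) of -1.01. Recovery of the RBM39 protein is not among these data. SOCS1 and IL6R were the members enriched over IgG. SOCS1 was at 13.5 FPKM with the RBM39 antibody and 0.824 FPKM with IgG, a log2 ratio of (FPKM + 1) of 2.99, above 99% of the genes compared. IL6R was at 479.6 FPKM with the RBM39 antibody and 159 FPKM with IgG, a log2 ratio of 1.58, above 89.2% of genes. Of the 9 members at 1 FPKM or more in either library, 2 reached a log2 ratio of 1, as did 22.6% of all genes, and 4 were at -1 or below, as were 23.9% of all genes.

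The other members were level or lower with the RBM39 antibody. JAK1 was at 58.1 FPKM with the antibody and 146 FPKM with IgG (log2 ratio -1.31), JAK2 at 4.78 FPKM with the antibody and 11.7 FPKM with IgG (-1.14), and CISH at 0.395 FPKM with the antibody and 1.84 FPKM with IgG (-1.03). SOCS3 was listed at 0 FPKM with the antibody and was at 1.52 FPKM with IgG. IL6ST, at 48.3 FPKM with the antibody and 95.4 FPKM with IgG, and STAT3, at 24.3 and 34.1 FPKM, had log2 ratios of -0.97 and -0.47. PIM2 was nearly level, at 439.6 FPKM with the antibody and 398 FPKM with IgG (log2 ratio 0.14). IL10 was listed at 0 in both libraries. Among the known STAT3 targets 9 of 16 reached a log2 ratio of 1 and 2 were at -1 or below, beside 22.6% and 23.9% of all genes, with JUNB at 24.1 FPKM with the antibody and 3.96 FPKM with IgG, and PIM3 at 47.8 and 10.4 FPKM. Over all 55 pathway genes compared 15 reached 1 and 12 were at -1 or below, with a median of 0.02, the same as over all genes.

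**Figure D5:**
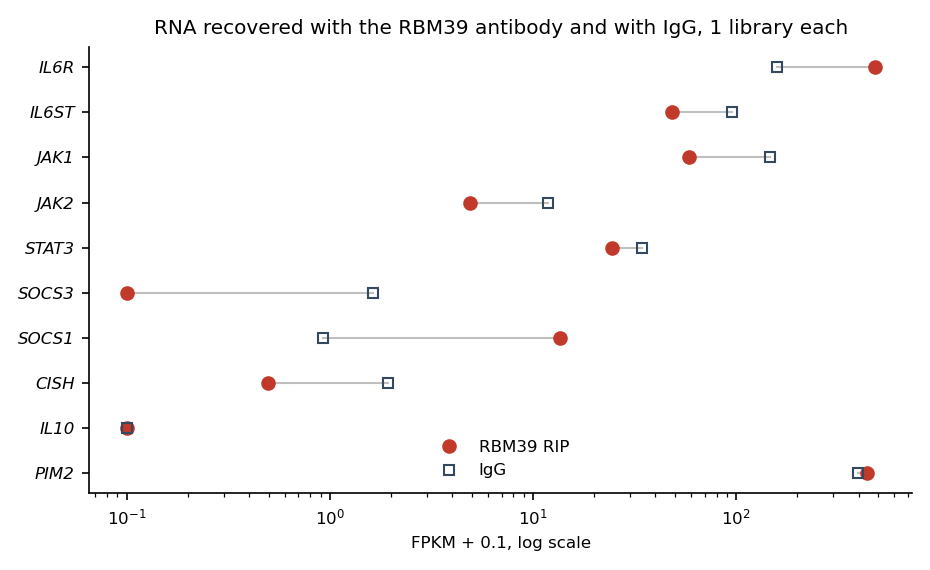
FPKM of the members with the RBM39 antibody (filled circles) and with IgG (open squares), 1 library each, on a log axis with 0.1 added. SOCS1 and IL6R lay higher with the antibody, and JAK1, JAK2, IL6ST, SOCS3 and CISH lower.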

How the data were processed

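Expression values of 16 libraries and 2 RIP libraries were used as the authors deposited them. The H929 and RIP values are FPKM made by the authors, per the file headers and names. The authors named the MM1S expression tables FPKM, but the deposited columns sum to 999999 to 1000001, so their values are TPM. The design had assumed FPKM, and the same test was used. The sources used here do not give the aligner, counting tool, annotation or strand setting. Only mouse builds are listed, per the submitters' processing notes, so no coordinates come from the files. In MM1S, 834 rows (knockdown table) and 473 rows (indisulam table) without a gene name, holding 0.436% to 0.459% and 0.174% to 0.237% of TPM, were left out. For a repeated symbol the row with the highest mean was kept. Each member had 1 row.

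Relative depth in H929 was taken as the most frequent ratio of low FPKM values in scramble library 1 to those in each library. It was 0.975 to 1.15 and was shared by only 12.9% to 16.7% of the low genes. For MM1S and RIP the depth is unknown, so no counting interval is given.

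Each comparison was fitted within its table with the two-sided test of limma 3.58.1 under R 4.3.3, with trend and robust settings, on log2(value + 1). A gene entered where it reached 1 in at least the number of libraries of the smaller group, with Benjamini-Hochberg adjustment over all genes tested and calls below 0.05. RIP ratios were log2((RBM39 + 1)/(IgG + 1)) for genes at 1 or more in either library. The method was tested on simulated data. Named were all members, up to 3 called genes per list and direction by adjusted p, IL6, PIM1, PIM3, TYK2 and JAK3, and the 3 genes most correlated with IL10 and with SOCS3. A gene that this rule names in the list of other kinases and STATs is not reported here. TTCNNNGAA and TATAAA were added after the data were seen. The label In was read as indisulam from the series' design text, and the MM1S shRNA numbers were taken as replicates, although the labels do not say whether they are hairpins. The members and lists were chosen with earlier results of these data known. Replicate numbers were not used as pairs, since the deviations of same-numbered libraries did not all correlate above 0.1. Alternatives were another pseudocount (0.1), no filter or a filter at 5, median scaling, quantile normalization, limma without trend and robust, summed rows, a replicate block and leaving out each library. Tables and plots were made in Python 3.11.15 using pandas 2.3.3, NumPy 2.4.6, matplotlib 3.10.9 and SciPy 1.17.1.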

Additional observations from a re-analysis of the deposited data

Results flagged for a closer look

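PIM2 moved in opposite directions in the 2 cell lines under the same label. Its log2 difference was 0.83 in H929, with every library labelled shRBM39 above every library labelled scramble, and -0.88 in MM1S, with every shRBM39 library below every scramble library. The difference between the lines was not tested, since the tables were normalized separately. RBM39 itself was higher in the H929 libraries labelled shRBM39 and lower in the MM1S ones.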

How the results depend on the processing

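In H929, 5 to 9 members were called over the alternatives, where 5498 (filter at 5) to 8411 (no filter) of all genes were called. In the MM1S knockdown the member count was 0 with no filter, with 6 at an unadjusted p below 0.05 in limma, and 0 to 2 when a library was left out, and the pathway count was 0 with no filter, 8 with a filter at 5, 3 with the replicate block and 0 to 4 without a library. With indisulam the member count was 4 after median scaling, 5 after quantile normalization, 1 with the replicate block (IL6ST) and 0 to 5 without a library. The counts of all genes called were then 5440, 5806, 3174 and 1849 to 9343, beside 4019 with the main settings. The pathway count with indisulam was 19, 22 and 7 to 38 (median scaling, quantile normalization and without a library). Signs turned for members that were not called: JAK1 in the MM1S knockdown to 0.03 (median scaling) and 0.04 (quantile normalization). When a library was left out, JAK2 in H929 ranged from -0.01 to 0.03, and in the MM1S knockdown SOCS1 from -0.28 to 0.20, CISH from -0.10 to 0.24, IL6ST from -0.08 to 0.20 and JAK1 from -0.12 to 0.09. IL6R with indisulam ranged from -0.38 to 0.01. The cause was not tested.

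Same-numbered libraries deviated together at r = 0.129, -0.000441 and 0.0253 in H929, 0.138, -0.146 and -0.0241 with indisulam, and -0.139 in the MM1S knockdown. With 2 libraries per group, both pairs of the knockdown must give the same value, so it counts once. With the replicate block 6 members were called in H929 and 2 in the MM1S knockdown, where PIM2 had a limma adjusted p of 0.0508. With the numbers crossed, added after the data were seen, 3 members and 6 pathway genes were called in the knockdown. The count of all genes called in the knockdown was 1470, or 299 with the replicate block, 779 with the crossed block and 0 with no filter. RIP calls stayed at 2 members enriched under each alternative. The count of members on the lower side was 4, or 3 after median scaling, where CISH was at -0.96. It was 5 with a log2 cutoff of 0.58 in place of 1.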

Other observations

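The MM1S control libraries of the knockdown and of the indisulam comparison differed in several members. IL10 was at 138 and 23.9 TPM in the scramble libraries and at 0 to 0.14 TPM in the DMSO libraries, and SOCS3 at 31.6 and 25.8 TPM and at 0.11 to 0.16 TPM. IL6ST was at 55.7 and 50.6 TPM with scramble and at 15.4 to 17.5 TPM in DMSO, JAK2 at 10.8 and 8.27 TPM and at 2 to 2.42 TPM, and STAT3 at 38.9 and 34.1 TPM and at 11.3 to 12.5 TPM. IL6R, at 73.2 and 86.2 TPM with scramble and 68 to 76.6 TPM in DMSO, was close in both. The tables were normalized separately and hold different experiments, so no test was made.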
